A study of Homo sapiens with 12 samples.

Results

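The mitochondrial genome transcripts of HepG2 cells were described here as all gene rows of the count table whose symbol starts with MT-. The rule found 37 rows among 60612, of which 13 are mRNAs, 2 are ribosomal RNAs (rRNAs) and 22 are transfer RNAs (tRNAs). All 37 passed the filter on low counts, which left 17779 rows in the tests. HepG2 is an established human liver cancer line. The cells were exposed to 0.001 µM 2,4-D (2,4-dichlorophenoxyacetic acid, an herbicide that acts as a synthetic auxin in plants) and taken at 0, 10, 30 and 360 min, with 3 replicates at each time. The 0 min cells are the untreated group, and no untreated cells from later times were analysed here. In each comparison with 0 min, exposure and elapsed time therefore cannot be told apart. All groups were detached with trypsin and their RNA was captured on oligo-dT beads.

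The human mitochondrial genome is a small circle with few noncoding stretches. It is copied into long transcripts from both strands, and the tRNAs that lie between the mRNAs and rRNAs are cut out of these transcripts to release the mature RNAs. Its mRNAs encode subunits of respiratory complexes I, III and IV and of the ATP synthase, and its rRNAs and tRNAs serve the ribosome inside the organelle. Most of these mRNAs carry a short poly(A) tail, which completes the stop codon of several, while the MT-ND6 mRNA is known for lacking a long tail.

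All 37 identifiers matched GENCODE release 29 on GRCh38, between bases 577 and 16023 of the mitochondrial chromosome, and each row is a gene of 1 exon. On the plus strand of that annotation lie 12 mRNAs, both rRNAs and 14 tRNAs, and on the minus strand lie MT-ND6 and 8 tRNAs. The tRNA rows are 59 to 75 bases long. Neither the counting program nor its strand setting is given in the sources used here, so reads of a gene and of the RNA opposite to it cannot be told apart. How a read across 2 neighbouring genes was counted is not given either. The RNA was selected by its poly(A) tail. Whether reads of a tRNA row came from the cut tRNA or from a longer uncut transcript was not tested. A tRNA said below to rise or fall is its row of counts.

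The mRNA ends show where the tail matters. The last 15 bases of 3 mRNAs whose sequence stops within a stop codon are printed from GENCODE release 29, 5′ to 3′, with the bases after the last whole codon in capitals.
MT-ND1 (chrM:3307-4262, plus strand): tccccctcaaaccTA
MT-ND4 (chrM:10760-12137, plus strand): ccgggttttcctctT
MT-CYB (chrM:14747-15887, plus strand): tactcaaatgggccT
MT-ND6 (chrM:14149-14673, minus strand) ends on a whole codon, in capitals below.
MT-ND6: gctcgggggaatAGG

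The genes that passed a test below were mostly tRNAs, and the sequences of these 6 tRNA genes are printed so that each can be identified. The anticodon is in capitals. It was located as the triplet with a T before it and an A or G after it between bases 28 and 40 of the gene, which gave 1 match in each.
MT-TF (tRNA for phenylalanine, chrM:577-647, plus strand): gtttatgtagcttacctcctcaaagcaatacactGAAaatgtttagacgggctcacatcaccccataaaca
MT-TI (isoleucine, chrM:4263-4331, plus strand): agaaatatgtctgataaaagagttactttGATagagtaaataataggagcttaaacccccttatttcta
MT-TQ (glutamine, chrM:4329-4400, minus strand): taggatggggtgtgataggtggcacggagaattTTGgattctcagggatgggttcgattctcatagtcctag
MT-TC (cysteine, chrM:5761-5826, minus strand): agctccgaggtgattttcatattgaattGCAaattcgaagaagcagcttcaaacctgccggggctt
MT-TY (tyrosine, chrM:5826-5891, minus strand): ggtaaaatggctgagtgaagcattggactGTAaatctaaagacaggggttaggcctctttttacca
MT-TT (threonine, chrM:15888-15953, plus strand): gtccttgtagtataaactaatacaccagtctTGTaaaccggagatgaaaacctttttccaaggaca
MT-TI and MT-TQ share 3 bases on opposite strands, and MT-TC and MT-TY share 1 base on the same strand. Reads over these bases cannot be assigned to 1 gene.

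Total counts, in units of 1e6, ran from 29.8 to 83.5 per library, and scaling factors (TMM, a trimmed mean of gene ratios) from 0.981 to 1.014. All 12 hepatocyte markers lay above 1 count per 1e6 counts (CPM) in every library, with ALB at 7892 to 9334 CPM. Of 13 markers of other cell types, 10 stayed below 1 CPM in every library, and the summed level of the 13 was 53.3 to 68.9 CPM. Most of that sum was CD68, at 48.9 to 63.8 CPM. PDGFRB was at 1.91 to 3.57 CPM and PECAM1 at 0.95 to 1.74. Libraries stood apart from their group in the mitochondrial mRNAs. The median absolute difference of these mRNAs from the other 2 replicates was largest in 0 min replicate 1 (1.17 on the log2 scale), followed by 360 min replicate 3 (0.86), 30 min replicate 1 (0.66) and 0 min replicates 2 and 3 (0.59 and 0.58), and it was lowest in 10 min replicate 1 (0.08). For 9629 other genes of at least 10 CPM it ran from 0.04 to 0.07 over the 12 libraries. The highest of these values was also that of 0 min replicate 1. Results that rest on 1 library are given with and without it. In bulk RNA, fewer cells with a transcript and less of it per cell cannot be told apart.

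The mRNAs made up most of the mitochondrial counts and varied most between libraries, while the rRNAs and tRNAs varied less. The 13 mRNAs held 3.58%, 1.86% and 1.91% of all counts at 0 min and 2.84%, 3.12% and 2.77% at 10 min. They held 2.07%, 3.26% and 3.16% at 30 min, then 1.98%, 1.87% and 3.25% at 360 min. The group means were 2.45% ± 0.977, 2.91% ± 0.183, 2.83% ± 0.658 and 2.37% ± 0.766 (SD, n = 3) in order of time. The groups overlapped, and the spread inside the 0, 30 and 360 min groups was larger than the differences between their means. Over all libraries the highest share was 1.92 times the lowest. An exact 95% binomial interval around a library's mRNA share was at most 0.00617 percentage points to either side, which covers counting error only.

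The 2 rRNAs held 0.753%, 0.693% and 0.695% of all counts at 0 min, and 0.572%, 0.595% and 0.686% at 360 min. Their group means were 0.714% ± 0.0339, 0.689% ± 0.0310, 0.663% ± 0.0755 and 0.618% ± 0.0605 (SD, n = 3) in order of time. All 3 libraries at 360 min lay below all 3 at 0 min, and both overlapped the groups between them. With TMM scaling each rRNA overlapped between 0 and 360 min. In 360 min replicate 3 MT-RNR1 was at 694 CPM, against 674 and 660 in 0 min replicates 2 and 3. MT-RNR2 was at 6305 CPM there, against 6230 and 6210. Of all genes tested, 35.6% did not overlap in this comparison. The 22 tRNAs held 0.0576% ± 0.00142 at 0 min, 0.0593% ± 0.00461 at 10 min, 0.0606% ± 0.00254 at 30 min and 0.0498% ± 0.00240 at 360 min (SD, n = 3). The 360 min libraries, at 0.0513%, 0.0471% and 0.0512%, lay below each of the other 9, the lowest of which held 0.0551%. The widest interval of a tRNA share was 0.000886 percentage points to either side. These shares are sums over the rows, in which the highest rows weigh most, and were not tested. Mean CPM at 0 and 360 min was 140 and 104 for MT-TY and 93.7 and 71.5 for MT-TC. It was 63.6 and 49.6 for MT-TN and 33.4 and 26.3 for MT-TA. Of the 22 tRNA rows, 10 had a log2 fold change above 0 at 360 min against 0 min, and the median was -0.07.

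**Figure D1:**
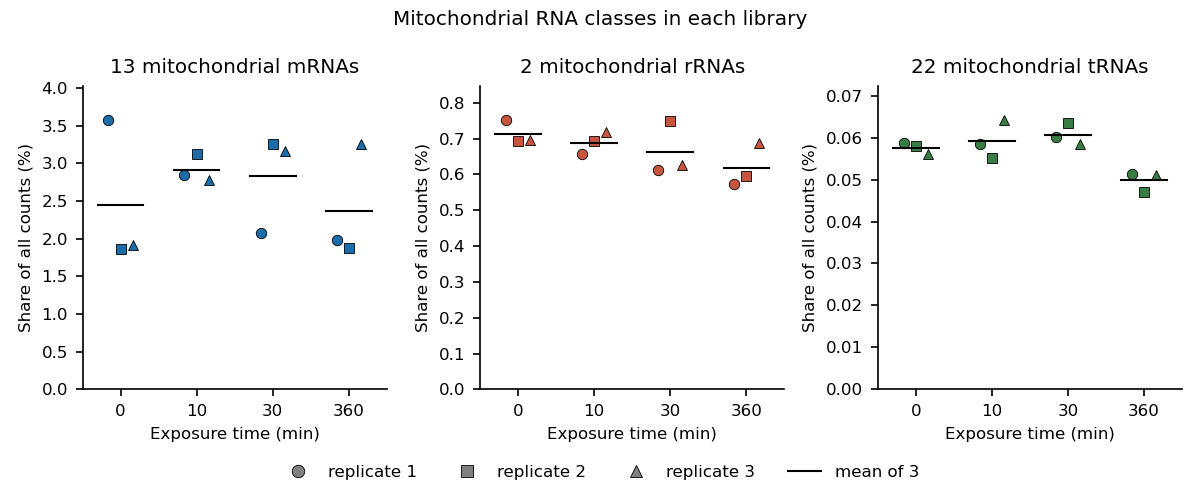
Share of all counts (%, axis from 0) held by the 13 mRNAs, 2 rRNAs and 22 tRNAs of the mitochondrial genome at each exposure time (min); each symbol is 1 library and bars are means of 3. The mRNA share ran from 1.86% to 3.58% and the groups overlap, while the 3 tRNA shares at 360 min, up to 0.0513%, lie below those of the other 9 libraries.

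Per kilobase of gene length, MT-CO1, the catalytic subunit of complex IV, had the highest level, at 6115 CPM per kilobase averaged over the 12 libraries. MT-RNR2, the large rRNA, followed at 3871. The complex IV subunits MT-CO2 and MT-CO3 stood at 3755 and 3332 CPM per kilobase. These 4 genes led the order, but their ranges over libraries overlapped in part, since MT-CO2 spanned 2411 to 5168 and MT-RNR2 spanned 3311 to 4368. The complex I subunits spread widely on this scale, from 3088 for MT-ND4L and 2610 for MT-ND4 to 1426 for MT-ND2, 1306 for MT-ND1, 800 for MT-ND3, 734 for MT-ND5 and 296 for MT-ND6. The ATP synthase subunits MT-ATP6 and MT-ATP8 stood at 2192 and 1350, and MT-CYB of complex III at 925. MT-RNR1, the small rRNA, stood at 712.

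The tRNA rows covered a wide range per kilobase, from 24.7 CPM per kilobase for MT-TW (tryptophan) to 2020 for MT-TY. Second among them was MT-TC at 1344, followed by MT-TS1 (serine) at 908, MT-TN (asparagine) at 823, MT-TL1 (leucine) at 573 and MT-TA (alanine) at 460. Of these 6, all but MT-TL1 lie on the minus strand, and MT-TA, MT-TN, MT-TC and MT-TY lie next to each other between MT-TW and MT-CO1. The other 16 tRNAs, including MT-TW, had at most 214 CPM per kilobase (MT-TF). The lowest count of any row in a library was 38, for MT-TW, a counting error of 16.2%.

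As a share of the mitochondrial mRNA counts, MT-CO1 took 29.8% in the lowest library and 41.3% in the highest (median 36.5%). MT-ND4 took 11.6% to 14.9%, MT-CO3 9.06% to 11.1% and MT-CO2 8.73% to 10.4%. These shares depend on gene length. With counts divided by length, the mean share was 22.5% for MT-CO1 (16.8% to 26.3%) and 11.1% for MT-ND4L, which took 2.99% to 3.71% of the counts. The make-up of the mRNA counts varied little between libraries for most genes. For 10 of the 13 mRNAs the highest share of counts was less than 1.5 times the lowest. MT-ATP8 and MT-ND6 varied most, 4.74-fold and 4.56-fold. MT-ATP8 took 0.549% to 2.60% of the mRNA counts, with the highest share in 0 min replicate 1. MT-ND6 took 0.249% to 1.14%, with the lowest share in 10 min replicate 2 and the highest in 360 min replicate 1.

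The 12 plus-strand mRNAs rose and fell together from library to library, and MT-ND6 did not follow them. MT-CO1 was at 10629, 7306 and 7809 CPM at 0 min, 10593, 11175 and 10169 at 10 min, 7934, 10857 and 10749 at 30 min, then 7559, 7144 and 11232 at 360 min. MT-CYB was at 1479, 626 and 619 CPM at 0 min, 1109, 1309 and 1126 at 10 min, 699, 1424 and 1397 at 30 min, then 718, 656 and 1496 at 360 min. Both were high in 0 min replicate 1, in the 3 libraries at 10 min, in 30 min replicates 2 and 3 and in 360 min replicate 3, and low in the other 5 libraries. At 0 min replicate 1 was the highest library for 13 of 13 mRNAs, and at 360 min replicate 3 was the highest for 12 of 13, the exception being MT-ND6. At 30 min replicate 1 was the lowest for 11 of 13, all but MT-ATP8 and MT-ND6.

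Over the 12 libraries, after removal of the group means, the 66 pairs of plus-strand mRNAs had Pearson correlations of log2 CPM from 0.784 to 0.996 (median 0.969). MT-ND6 had correlations of -0.04 to 0.285 (median 0.03) with the same 12 mRNAs. MT-RNR1 had 0.576 to 0.857 with them and MT-RNR2 0.586 to 0.769. These values describe genes that share libraries, depth and a common template, and no p-value is attached to them.

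**Figure D2:**
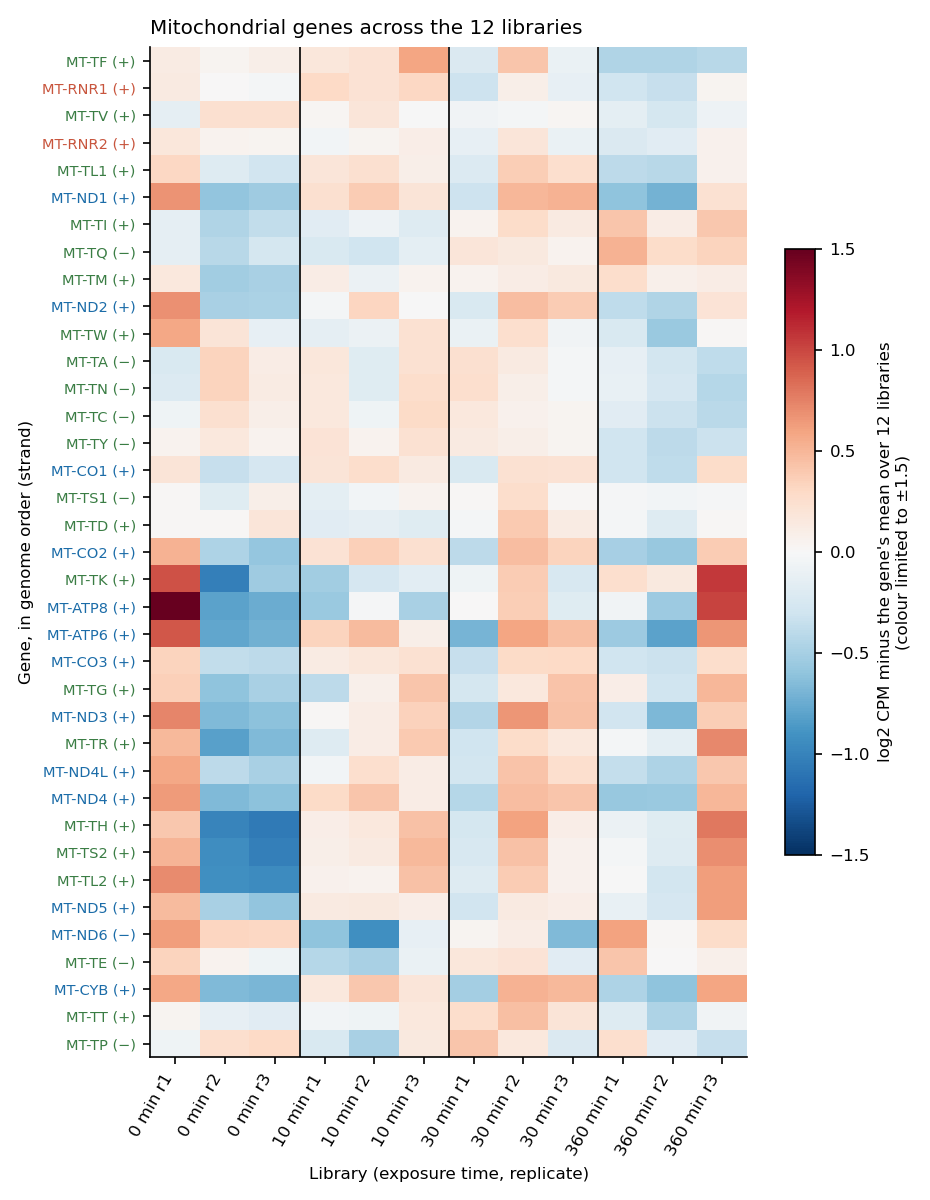
Log2 CPM of each mitochondrial gene minus its mean over the 12 libraries (colour, limited to ±1.5), with genes in genome order as rows (strand in brackets; labels blue for mRNAs, red for rRNAs, green for tRNAs) and libraries as columns. The plus-strand mRNAs share their high and low libraries, MT-ND6 does not share them, and MT-TY is low in the 3 libraries at 360 min.

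The size of this swing differed between the mRNAs. Within the 0 min group, the highest library was 6.91 times the lowest for MT-ATP8, 3.27 times for MT-ATP6, 2.63 times for MT-ND3, 2.47 times for MT-ND4, 2.41 times for MT-ND1 and 2.39 times for MT-CYB. It was 2.25 times for MT-ND2, 2.14 times for MT-CO2 and 2.09 times for both MT-ND4L and MT-ND5. The smallest ratios among the mRNAs were 1.66 for MT-CO3, 1.45 for MT-CO1 and 1.25 for MT-ND6. The rRNAs moved less than any mRNA here, with 1.12 for MT-RNR1 and 1.09 for MT-RNR2. At 10 min the highest and lowest libraries differed by at most 1.46-fold for each of the plus-strand mRNAs and 1.74-fold for MT-ND6.

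Among all genes tested, this spread was large for transcripts of such high level. The SD of log2 CPM within groups was 0.91 for MT-ATP8, 0.72 for MT-ATP6, 0.57 for MT-CYB, 0.56 for MT-ND3 and 0.55 for MT-ND4. These 5 mRNAs exceeded over 90% of the genes tested. It was 0.34 for MT-ND6, 0.26 for MT-CO1, 0.15 for MT-RNR1, 0.13 for MT-RNR2 and 0.07 for MT-TY. The median was 0.10 over the 17779 genes tested and 0.05 over the 2225 with a mean of at least 100 CPM. Of the 37 rows, 36 exceeded the first median, and MT-TY alone did not. Of the tRNAs, 4 exceeded over 90% of the genes, and these were MT-TK (lysine, 0.60), MT-TL2 (leucine, 0.56), MT-TH (histidine, 0.55) and MT-TS2 (serine, 0.53).

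**Figure D3:**
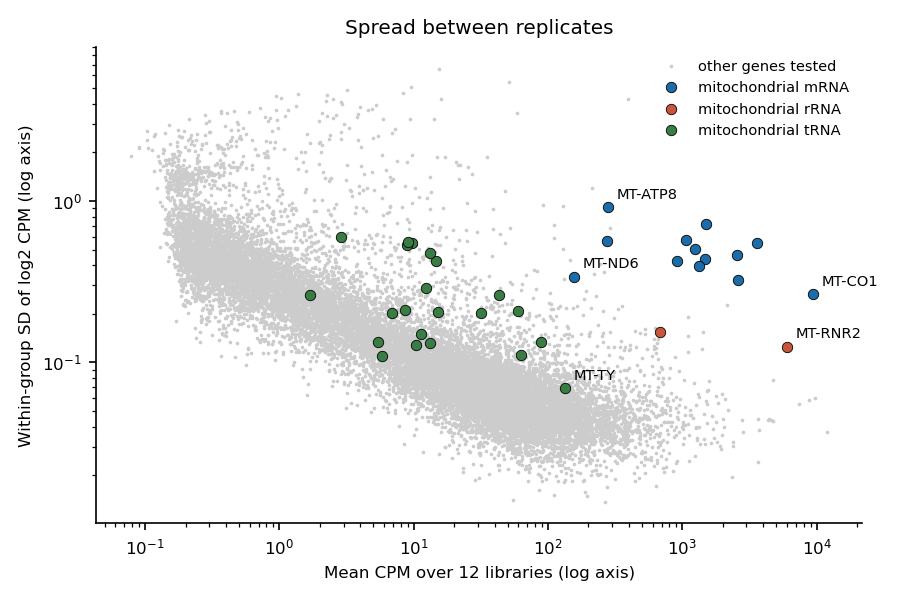
Within-group SD of log2 CPM (log axis) against mean CPM over 12 libraries (log axis) for the genes tested (grey) and the mitochondrial mRNAs, rRNAs and tRNAs (coloured). The mRNAs, from 0.26 for MT-CO1 to 0.91 for MT-ATP8, lie above most genes of similar level, and MT-TY, at 0.07, lies among them.

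MT-ATP8 and MT-ATP6 lie on 1 mRNA and share bases 8527 to 8572, in capitals in the MT-ATP8 sequence, which is printed because its row had the widest spread of the 37.
MT-ATP8 (chrM:8366-8572, plus strand): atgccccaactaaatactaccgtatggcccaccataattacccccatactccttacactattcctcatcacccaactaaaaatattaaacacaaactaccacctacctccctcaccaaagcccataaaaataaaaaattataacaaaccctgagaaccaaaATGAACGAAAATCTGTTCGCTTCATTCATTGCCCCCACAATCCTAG
The overlap is 46 of 207 bases, so reads there cannot be assigned to 1 of the genes. MT-ATP8 was at 928, 134 and 139 CPM at 0 min, 158, 231 and 166 at 10 min, 234, 302 and 206 at 30 min, then 224, 160 and 472 at 360 min. MT-ATP6 was at 2602, 796 and 825 CPM at 0 min, 1712, 1887 and 1445 at 10 min, 843, 2054 and 1865 at 30 min, then 936, 784 and 2164 at 360 min. Although they sit on 1 transcript, their count ratio was not constant: MT-ATP8 over MT-ATP6 ran from 0.0924 to 0.357, with the highest value in 0 min replicate 1. The ratio of MT-ND4L to MT-ND4, which share an mRNA and 7 bases, ran from 0.207 to 0.316.

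Among the pairs of neighbouring tRNAs computed, the range of the ratio differed. MT-TN over MT-TA ran from 1.82 to 1.94, a 1.07-fold range over the 12 libraries. MT-TC over MT-TN ran from 1.38 to 1.63 and MT-TY over MT-TC from 1.38 to 1.63. MT-TS2 over MT-TH ran from 0.834 to 1.00, and MT-TL2 over MT-TS2 from 0.964 to 1.17. Wider ranges were found for MT-TQ over MT-TI (1.30-fold) and MT-TM over MT-TQ (1.52-fold, the same as MT-ND4L over MT-ND4). They were also found for MT-TR over MT-TG, which lie on either side of MT-ND3 (1.41-fold), and MT-TV over MT-TF, which lie on either side of MT-RNR1 (1.92-fold). The ratio of the rRNAs, MT-RNR2 over MT-RNR1, ran from 7.04 to 10.2, and its values at 10 min were 7.04, 7.91 and 7.76.

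Across the 4 times, 8 of the 37 mitochondrial genes passed the test for any difference between times (edgeR's quasi-likelihood test, Benjamini-Hochberg adjusted p under 0.05), or 21.6%. Of all genes tested, 22.6% passed, so the share among mitochondrial genes was near the background. The 8 were the 6 tRNAs MT-TY (adjusted p = 5.96e-05), MT-TQ (0.00108), MT-TI (0.00469), MT-TC (0.0103), MT-TF (0.0113) and MT-TT (0.0157), the rRNA MT-RNR1 (0.0198) and the mRNA MT-ND6 (0.0230). None of the 12 plus-strand mRNAs passed. MT-TY, MT-TQ and MT-TI were called in each omission of 1 library. The other 5 calls each rested on single libraries: MT-ND6 was lost without 10 min replicate 1 or 2 (adjusted p 0.0766 and 0.0651), MT-RNR1 without 10 min replicate 1 or 3 or 360 min replicate 1 (0.0569 to 0.0638), MT-TC without 360 min replicate 2 or 3 (0.0560 and 0.0648), MT-TT without 30 min replicate 2 (0.0727) and MT-TF without 360 min replicate 1 (0.0504). Without 0 min replicate 1 the count was 16 (43.2%), of which 14 were tRNAs, where 23% of all genes passed.

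At 10 min no mitochondrial gene passed the edgeR test against 0 min, where 0.0169% of all genes did. An unadjusted p under 0.05 was found for 4 of 37 rows, near the share of all genes (1941 of 17779). The largest difference with groups that did not overlap was that of MT-ND6, a complex I subunit. It was at 228, 185 and 183 CPM at 0 min, 97.0, 78.2 and 136 at 10 min, 152, 160 and 93.6 at 30 min, then 225, 149 and 179 at 360 min. All 3 libraries at 10 min, and all 3 at 30 min, lay below all 3 at 0 min, and those at 360 min overlapped them. The log2 fold change at 10 min was -0.93 ± 0.22 (SE, adjusted p = 0.166 by edgeR), and DESeq2 called it with an adjusted p of 0.0484. This was 1 of 37 mitochondrial genes (2.7%), beside 0.284% of all 60612 rows, which include rows of low counts. MT-TE (glutamate), which adjoins MT-ND6 on the same strand, was also lower in all 3 libraries at 10 min, by -0.44 ± 0.15 (adjusted p = 0.330).

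MT-RNR1 was at 739, 674 and 660 CPM at 0 min, then 828, 781 and 831 at 10 min. Its log2 fold change was 0.24 ± 0.10 (edgeR, adjusted p = 0.431), and the groups did not overlap. Between 10 and 0 min 5 rows did not overlap, 2 higher (MT-RNR1 and MT-TF) and 3 lower (MT-ND6, MT-TE and MT-TD for aspartate). Of all genes, 15.5% did not overlap, and 5 of 37 is 13.5%. The 13 mRNAs had a median log2 fold change of 0.26 with 11 above 0, against a median of -0.00 over all genes. This median rested on single 0 min libraries. It was 0.67 without replicate 1, with an unadjusted p under 0.05 for 12 of 13 mRNAs and no call, where 0.134% of all genes passed. It was 0.08 and 0.06 without replicates 2 and 3, with 7 of 13 above 0 in each case.

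**Figure D4:**
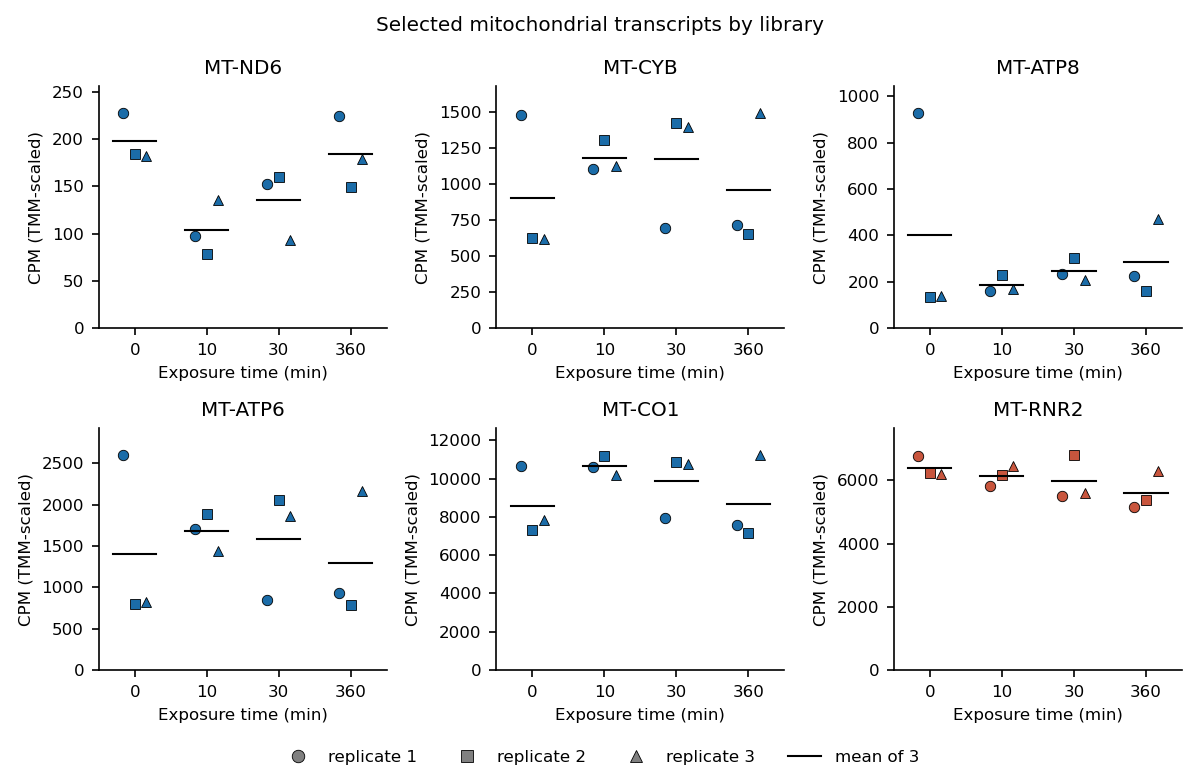
CPM (TMM-scaled, axes from 0) of MT-ND6, MT-CYB, MT-ATP8, MT-ATP6, MT-CO1 and MT-RNR2 at each exposure time (min); each symbol is 1 library and bars are means of 3. MT-ND6 is at 78.2 to 136 CPM at 10 min, below the 183 to 228 CPM at 0 min, while the other mRNAs have 1 high library at 0 min and at 360 min.

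At 30 min no mitochondrial gene passed the edgeR test against 0 min, where 0.765% of all genes did. An unadjusted p under 0.05 was found for 5 of 37 rows, beside 1652 of all 17779 genes. MT-TI was at 4.88, 3.91 and 4.14 CPM at 0 min, then 5.55, 6.44 and 5.85 at 30 min, a log2 fold change of 0.47 ± 0.11 (adjusted p = 0.106). MT-TQ gave 0.40 ± 0.10 (adjusted p = 0.117) and MT-TT 0.39 ± 0.11 (adjusted p = 0.185). These 3 tRNAs were higher and MT-ND6 was lower (-0.55 ± 0.22, adjusted p = 0.444) without overlap of the groups. These are 4 of 37 rows, or 10.8%, against 14.5% of all genes. The median of the 13 mRNAs was 0.21. It was 0.72 without 0 min replicate 1 and 0.40 without 30 min replicate 1, but 0.06 and 0.07 without 0 min replicates 2 and 3, and 0.10 and 0.13 without 30 min replicates 2 and 3. Without 0 min replicate 1, MT-TM (methionine) was the 1 mitochondrial gene called, at 0.60 ± 0.10 (edgeR, adjusted p = 0.0109), where 0.875% of all genes passed. DESeq2 on all libraries called MT-TI, MT-TQ and MT-TT, or 8.11% of the 37. It called 0.455% of all 60612 rows, which include rows of low counts.

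Between 10 and 30 min, again, no mitochondrial gene passed the edgeR test, where 0.574% of all genes did. By unadjusted p under 0.05 there were 6 of 37, beside 2123 of all 17779 genes. DESeq2 called 0 of them, beside 0.478% of all 60612 rows. MT-RNR1, at 541, 714 and 615 CPM at 30 min, was lower than at 10 min by -0.38 ± 0.10 (adjusted p = 0.143). MT-TQ, MT-TD, MT-TI and MT-TT were higher without overlap, so that 5 of 37 rows did not overlap, beside 17.4% of all genes.

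At 360 min 5 of the 37 genes passed the test against 0 min, or 13.5%, where 18.1% of all genes did. All 5 were tRNA rows, 2 higher and 3 lower. MT-TY fell most clearly. It was at 137, 147 and 137 CPM at 0 min, 152, 136 and 155 at 10 min, 145, 141 and 136 at 30 min, then 107, 100 and 106 at 360 min. Each library at 360 min lay below each of the other 9, and the log2 fold change against 0 min was -0.42 ± 0.05 (edgeR, adjusted p = 9.98e-05). Its neighbour MT-TC was at 83.9, 104 and 93.5 CPM at 0 min, then 78.0, 70.1 and 66.4 at 360 min, and its log2 fold change was -0.39 ± 0.09 (adjusted p = 0.00856). MT-TF, the first gene of the plus strand, was at 16.2, 15.3 and 15.7 CPM at 0 min, then 10.9, 10.8 and 11.1 at 360 min. Its log2 fold change was -0.52 ± 0.15 (adjusted p = 0.0252), and this call was lost when any 1 of the 6 libraries was left out (adjusted p 0.0525 to 0.0713).

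The tRNAs that rose at 360 min were the overlapping pair MT-TI and MT-TQ. MT-TQ was at 5.14, 4.22 and 4.69 CPM at 0 min, 4.80, 4.59 and 5.11 at 10 min, 6.41, 6.26 and 5.85 at 30 min, then 8.09, 6.81 and 7.09 at 360 min. It rose by 0.65 ± 0.10 on the log2 scale (edgeR, adjusted p = 0.000728), with 30 min libraries above and 360 min libraries further above those of the first 2 times. MT-TI was at 4.74, 5.05 and 4.66 CPM at 10 min and at 7.09, 5.75 and 7.06 at 360 min, and rose by 0.63 ± 0.11 against 0 min (adjusted p = 0.00210). Both lie at a few CPM. They lie on opposite strands and share 3 bases, and without the use of strand their reads cannot be told apart with certainty.

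The other 17 tRNAs did not pass at 360 min. MT-TA and MT-TN, the next genes in order beside MT-TC, had log2 fold changes of -0.35 ± 0.13 and -0.36 ± 0.14 (edgeR, adjusted p = 0.0896 and 0.0856). MT-TV (valine), between the rRNAs, had -0.29 ± 0.10 (adjusted p = 0.0612). MT-TM, next to MT-TQ, had 0.41 ± 0.15 (adjusted p = 0.0735). MT-TW had -0.46 ± 0.20, MT-TP (proline) -0.23 ± 0.19, MT-TL1 -0.18 ± 0.17, MT-TT -0.14 ± 0.11, MT-TD -0.13 ± 0.10, MT-TS1 -0.00 ± 0.08 and MT-TE 0.07 ± 0.15. The largest values among the rest were those of the tRNAs that lie between the plus-strand mRNAs, and their errors were wide. MT-TH had 0.66 ± 0.37, MT-TS2 0.54 ± 0.36, MT-TK 0.54 ± 0.41, MT-TR (arginine) 0.47 ± 0.32, MT-TL2 0.36 ± 0.37 and MT-TG (glycine) 0.34 ± 0.28.

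These tRNAs shared the high library of the mRNAs at 0 min. MT-TH was at 12.0, 4.54 and 4.31 CPM at 0 min, then 8.51, 7.94 and 15.7 at 360 min. MT-TS2 was at 12.0, 4.42 and 4.12 CPM at 0 min, then 8.21, 7.38 and 13.6 at 360 min. Without 0 min replicate 1, 14 mitochondrial genes (37.8%) were called at 360 min, 9 higher and 5 lower, where 14.6% of all genes were. Among them were MT-TK (1.31 ± 0.29, adjusted p = 0.00988), MT-TH (1.27 ± 0.30, 0.0139), MT-TS2 (1.19 ± 0.26, 0.00981), MT-TL2 (1.10 ± 0.24, 0.0105), MT-TR (0.98 ± 0.26, 0.0238) and the mRNA MT-ND5 (0.67 ± 0.21, 0.0482). MT-TM, MT-TV, MT-TA and MT-TN were called as well, while MT-TF was not.

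None of the 13 mRNAs and neither rRNA passed the test at 360 min. The mRNAs had a median log2 fold change of -0.08, against 0.00 over all genes, and 4 lay above 0. MT-ND5, a complex I subunit, had the highest value (0.26 ± 0.26) and MT-ATP8 the lowest (-0.48 ± 0.61). Among the other complex I subunits MT-ND1 had -0.27 ± 0.33, MT-ND2 -0.20 ± 0.29, MT-ND3 -0.10 ± 0.37, MT-ND4 -0.04 ± 0.36, MT-ND4L -0.07 ± 0.28 and MT-ND6 -0.10 ± 0.22. Complex IV subunits lay near 0, with MT-CO1 at 0.01 ± 0.17, MT-CO2 at -0.08 ± 0.31 and MT-CO3 at 0.01 ± 0.21. MT-CYB had 0.08 ± 0.38 and MT-ATP6 -0.12 ± 0.48. With SEs of 0.17 to 0.61, these values leave wide room, and no difference of the mRNAs was detectable at this spread. The sign of the mRNA median turned with single libraries: it was 0.35 with 13 of 13 above 0 without 0 min replicate 1, and -0.44 with 0 of 13 above 0 without 360 min replicate 3. The other omissions gave -0.24 and -0.25 for 0 min replicates 2 and 3, and 0.06 and 0.10 for 360 min replicates 1 and 2.

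The rRNAs had log2 fold changes of -0.23 ± 0.10 (MT-RNR1, edgeR, adjusted p = 0.158) and -0.19 ± 0.08 (MT-RNR2, adjusted p = 0.145) at 360 min. MT-RNR2 was at 6770, 6230 and 6210 CPM at 0 min, 5832, 6183 and 6446 at 10 min, 5502, 6809 and 5609 at 30 min, then 5161, 5367 and 6305 at 360 min. Its groups overlapped through 360 min replicate 3, which was also the library with high mRNAs. Without that library both rRNAs were called lower, MT-RNR1 at -0.36 ± 0.09 (adjusted p = 0.0177) and MT-RNR2 at -0.28 ± 0.08 (adjusted p = 0.0307), among 6 mitochondrial genes called (16.2%, where 14.2% of all genes were). Over all 37 rows, 5 did not overlap between 360 and 0 min, 2 higher and 3 lower, beside 35.6% of all genes.

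**Figure D5:**
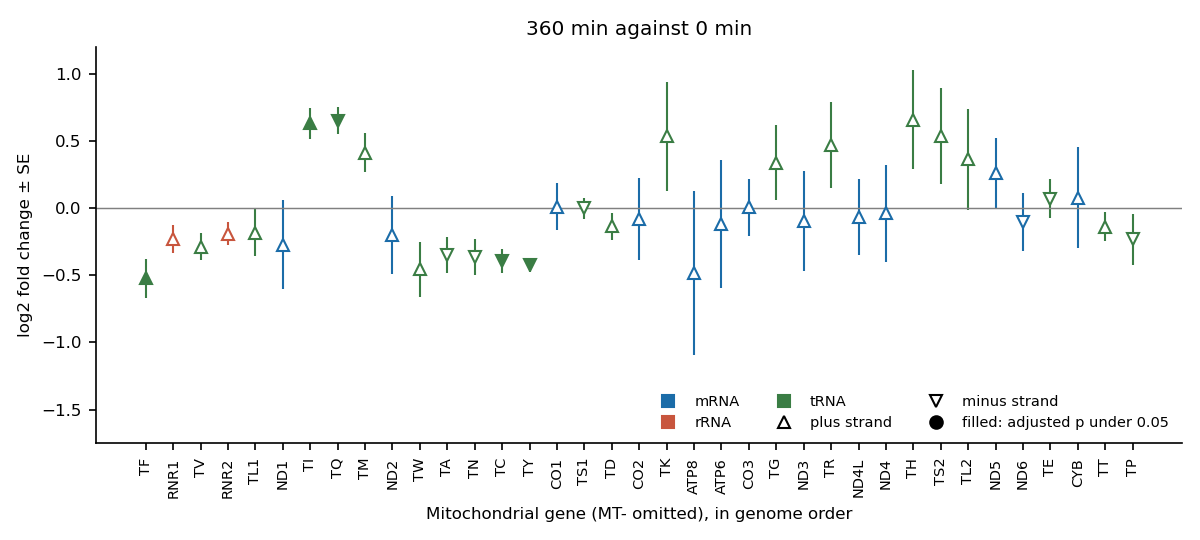
Log2 fold change at 360 min against 0 min ± SE for the 37 mitochondrial genes in genome order; colour gives the class, triangles pointing up the plus strand and down the minus strand, and filled symbols an adjusted p under 0.05. The 5 filled symbols are tRNAs, MT-TI and MT-TQ above 0 and MT-TF, MT-TC and MT-TY below, and the mRNAs scatter around 0 with wide errors.

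From 30 to 360 min 4 genes passed the edgeR test, all tRNAs and all lower, or 10.8% of the 37, where 22.7% of all genes passed. The log2 fold change was -0.43 ± 0.05 for MT-TY (adjusted p = 6.59e-05) and -0.38 ± 0.09 for MT-TC (adjusted p = 0.00786). MT-TT was at 11.5, 10.3 and 9.98 CPM at 0 min, 10.9, 10.7 and 12.5 at 10 min, 13.4, 15.4 and 12.8 at 30 min, then 9.80, 8.12 and 10.8 at 360 min. It was highest at 30 min, when each library lay above each of the other 9, and fell by 0.53 from there (SE 0.11, adjusted p = 0.00402). MT-TF fell by 0.50 (SE 0.15, adjusted p = 0.0253), but by 0.28 without 30 min replicate 2 (adjusted p = 0.10), and it also missed the threshold without any 1 of the 360 min libraries. Without overlap there were 9 rows, 1 higher (MT-TQ) and 8 lower, beside 39.8% of all genes. No mRNA passed, with a median of -0.29. Leaving out 1 library moved this median between -0.65 (without 360 min replicate 3) and -0.10 (without 360 min replicate 2). The values without 30 min replicates 1, 2 and 3 were -0.56, -0.11 and -0.17, and that without 360 min replicate 1 was -0.12.

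Rows of nuclear copies of mitochondrial genes, pseudogenes that lie in the chromosomes, held 0.0524% to 0.102% of counts per library over 408 rows, and 12 of these passed the filter on low counts. None of the 12 was called by edgeR in any of the 5 comparisons of 2 groups. Of all genes, 0.0169% (10 against 0 min) to 22.7% (360 against 30 min) were called in these comparisons. The copy MTATP6P1, chosen for its level after its values were seen, was at 381, 153 and 162 CPM at 0 min and 191, 159 and 417 at 360 min, high in the same libraries as MT-ATP6. MTND2P28 was at 333, 182 and 182 CPM at 0 min and 203, 186 and 276 at 360 min, high where MT-ND2 was. MTCO1P12 was at 254, 176 and 196 CPM at 0 min and 211, 180 and 194 at 360 min. It was not highest in 360 min replicate 3, where MT-CO1 was. Reads that fit both a copy and the mitochondrial genome may have been counted for either. A list of RNAs that lack a poly(A) tail or stay in the nucleus held 0.0410% to 0.0561% of counts per library, and its part in the spread was not tested.

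The nuclear genes that serve the mitochondrial genome had list medians near 0, in which rises and falls can cancel. Their median log2 fold changes at 360 min against 0 min ran from -0.09 (mitophagy) to 0.05 (mitochondrial ribosomal proteins). Single genes changed more, PERM1 (below) among them. No gene was called by edgeR at 10 or 30 min against 0 min in any of 10 lists. Of all genes, only 0.0169% and 0.765% were called there. At 360 min 3 of 19 genes of mitochondrial DNA transcription and upkeep rose and 1 fell: TFAM, which packages the genome and starts transcription, rose by 0.14 ± 0.04 (edgeR, adjusted p = 0.0343), the helicase and nuclease DNA2 by 0.21 ± 0.04 (0.00522) and the methyltransferase TFB1M by 0.13 ± 0.04 (0.0442), while the topoisomerase TOP1MT fell by 0.19 (SE 0.05, adjusted p = 0.00975). The list's median was 0.02, against 0.00 over all genes. Of 32 genes of mitochondrial RNA processing, modification and decay, 4 rose and none fell. They were MTO1 (0.22 ± 0.04, adjusted p = 0.00157) and TRMU (0.17 ± 0.04, 0.0181), which modify tRNAs, LRPPRC (0.14 ± 0.04, 0.0234), which stabilises mRNAs, and the helicase SUPV3L1 (0.16 ± 0.05, 0.0365). The shares called were 21.1% and 12.5%, beside 18.1% of all genes.

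Of 78 mitochondrial ribosomal protein genes, 12 rose and 4 fell at 360 min (20.5%, near the 18.1% of all genes), with a median of 0.05. MRPL27 rose by 0.27 ± 0.05 (edgeR, adjusted p = 0.00185) and MRPL2 fell by 0.27 (SE 0.05, adjusted p = 0.00315). Of 21 genes of mitochondrial tRNA charging, 3 rose and 2 fell (23.8%). TARS2, which charges the threonine tRNA, fell by 0.28 (SE 0.05, adjusted p = 0.00124), and EARS2, which charges the glutamate tRNA, rose by 0.22 ± 0.04 (0.00148).

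Of the nuclear-encoded subunits, 1 of 7 complex I core genes rose (NDUFS3, 0.11 ± 0.03, edgeR, adjusted p = 0.0320) and 1 of 9 complex III genes rose (CYC1, cytochrome c1, 0.13 ± 0.04, 0.0382). None of 10 complex IV genes and none of 15 complex V genes was called. Of 10 regulators of mitochondrial biogenesis, YY1 rose by 0.13 ± 0.03 (0.0137) and PPARGC1A, the coactivator PGC-1α, fell by 0.25 (SE 0.08, adjusted p = 0.0417). Its level was 13.02 ± 0.352 CPM at 0 min and 10.9 ± 0.426 at 360 min (SD, n = 3). PERM1, at about 1 CPM, fell by 1.04 (SE 0.22, adjusted p = 0.00502). Of 12 mitophagy genes tested, the receptor SQSTM1 rose by 0.13 ± 0.03 (0.0103), and CALCOCO2, OPTN and FKBP8 fell by 0.16, 0.15 and 0.16. Beside the 18.1% of all genes, these shares rest on 1 to 4 genes per list: 14.3% of complex I core, 11.1% of complex III, 3 of 10 biogenesis regulators and 33.3% of mitophagy genes.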

How the data were processed

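Polyadenylated RNA of HepG2 cells was sequenced in 12 libraries, 3 per time. The authors deposited 1 table with 60612 gene rows, whose values are whole-number read counts. HISAT2, DESeq2 and GRCh38 are named per the submitters' processing notes. Their versions, the counting program and its strand setting do not stand in the sources used here. The members and gene lists were chosen with earlier results of these data known.

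Counts were fitted as deposited with edgeR 4.0.16 (R 4.3.3): filterByExpr by group left 17779 rows, TMM scaling, a quasi-likelihood model over all 12 libraries with 8 residual degrees of freedom, two-sided tests and Benjamini-Hochberg adjustment over all rows tested. Adjusted p-values are from this test unless DESeq2 is named, and judge a difference against the spread between replicate libraries. CPM values are TMM-scaled, except those of cell type markers and nuclear copies, which use total counts. Shares use total counts. The SE is the absolute log2 fold change divided by the square root of F. For the within-group SD, 0.01 was added to CPM before the log2. All mRNAs, rRNAs and tRNAs with a mean of at least 1 CPM were named, and from each other list those 4 of smallest p per comparison could be named.

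Alternatives were DESeq2 1.42.0, RLE, total-count and nuclear-only scaling, no filter, a stricter filter (1 CPM in 3 libraries and 100 counts), the 2 groups alone, a replicate block, and leaving out each library. The test was checked on simulated data. Positions and sequences are from GENCODE release 29.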

Additional observations from a re-analysis of the deposited data

Results flagged for a closer look

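The 30 min and 360 min groups differed from each other by the test of their difference in 4 tRNAs. The log2 fold change at 360 min against 30 min was -0.50 for MT-TF, -0.38 for MT-TC, -0.43 for MT-TY and -0.53 for MT-TT (edgeR's quasi-likelihood test over 12 libraries). MT-TT is the 1 of these that was not called at 360 min against 0 min.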

How the results depend on the processing

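Over the alternatives run, 84 counts of called mitochondrial genes stayed within 1.5 times the main count or at 0, and 5 rose. Leaving out 0 min replicate 1 gave 16 called genes for any time (range over single omissions 6 to 16), 1 at 30 min (0 to 1) and 14 at 360 min against 0 min (4 to 14); at 10 min every omission gave 0. DESeq2 called 1 gene at 10 min (MT-ND6) and 3 at 30 min (MT-TI, MT-TQ and MT-TT), beside 0.284% and 0.455% of all 60612 rows. Which feature of that library moves these counts was not tested. The log2 fold change of MT-ND6 at 360 min against 0 min ran from -0.27 to 0.02 over single omissions and turned to 0.00127 without 0 min replicate 1 and to 0.0184 without 360 min replicate 2. With the replicate block the counts were 8 for any time, 0 at 10 min, 0 at 30 min, 5 at 360 min against 0 min, 0 for 30 against 10 min and 4 for 360 against 30 min, as without it. The same-numbered libraries had correlations of -0.05 to 0.09 over 18 pairs, and 5 of 12 libraries were closest to their own number. No pairing by number was visible in these values. They cannot show whether same-numbered libraries share a culture or a day. For the 12 fold changes followed (MT-ND6 at each time against 0 min and those called at 360 min against 0 or 30 min), 155 values kept direction and side of the threshold, 10 values, all of MT-TF, missed it, and 1, MT-ND6 at 10 min by DESeq2, passed it. Other rows, whose fold changes are not in this tally, also passed under single alternatives, among them MT-TM and MT-TV at 360 min against 0 min by DESeq2 and MT-TA at 360 min against 30 min with the stricter filter. Depth limits the tRNA rows, the lowest of which had 38 counts.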
